A study of Macaca mulatta with 2 samples.

Results

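The genes described here were 9 genes of the S100, annexin, galectin, vimentin and lamin families that were named as a memory T cell group, namely S100A4, S100A6, S100A10, S100A11, ANXA1, ANXA2, LGALS1, VIM and LMNA. They were chosen from measured values of these same cells, so their levels by CCR7 and GZMB and in the gates below are descriptions and carry no test. Of the 9 genes, 8 had a feature row among the 35432 genes of the matrix, and LGALS1 had none. All 8 were among the 4689 genes with at least 20 UMIs per 1000000 in CD3E+ cells. The cells were circulating CD4+CD8+ double-positive (DP) T cells of 1 healthy, untreated rhesus monkey (Macaca mulatta) aged 6 years, taken from peripheral blood with CD4 beads and then CD8 beads. The 2 libraries, single-cell 5′ RNA and CD4 and CD8 antibody tags (feature barcodes, FB), were read from the same droplets, with 7923 barcodes in both. With 1 animal there was no replicate, so every interval below is an exact 95% interval that covers counting error only, and no value carries a p-value.

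S100 proteins are small calcium-binding proteins, and annexins bind acidic membrane phospholipids when calcium rises. The families meet in complexes: S100A10 pairs with annexin A2 at the plasma membrane, and S100A11 binds annexin A1. Vimentin forms the intermediate filaments of the cytoplasm, A-type lamins from LMNA line the nuclear envelope, and several of these transcripts are commonly more abundant in memory than in naive T cells. CCR7 is the lymph node homing receptor of naive and central memory T cells, and GZMB encodes the cytotoxic protease granzyme B.

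By the RefSeq annotation of the Mmul_10 assembly, 5 of the 8 genes lay on chromosome 1. S100A4 (ENSMMUG00000010979, chr1:97523533-97525830) and S100A6 (ENSMMUG00000008917, chr1:97533171-97534795) lay on the plus strand with 7340 bases between them, in which S100A5 (listed at 0 UMIs in CD3E+ cells) lies. S100A11 (chr1:99009076-99013662) and S100A10 (ENSMMUG00000052533, chr1:99084726-99095856) were on the same strand, and LMNA (ENSMMUG00000016096, chr1:94827253-94888787) was on the minus strand. ANXA2 (ENSMMUG00000012000) was at chr7:36802266-36859409 on the minus strand, and VIM (ENSMMUG00000003193, chr9:18373874-18383435) and ANXA1 (ENSMMUG00000012667, chr15:88561712-88580580) were on the plus strand. The authors' feature list spelled the symbol S100A11 at a row beside BLM (ENSMMUG00000056402), which held 227 UMIs over all barcodes. The row ENSMMUG00000004441, which carried no symbol and stood close to S100A10 in the list, is named S100A11 in the gene name table and held 41145 UMIs. That row was used as S100A11 throughout.

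The reason for showing sequence here is that S100A11 has near-identical copies elsewhere in the genome, so that some reads can fit more than 1 place. Its 645-base RefSeq mRNA matched chromosome 7 at 100% identity over 536 aligned bases (chr7:69585433-69585968, minus strand), and 3 further places at 97.5% to 98.1% identity. The 90 coding bases below open the second coding exon of S100A11 (chr1:99012375-99012464, plus strand), followed by the aligned bases of the copies at chr7:69585818-69585907 (minus strand), chr14:47165151-47165240 (plus strand), chr4:93318471-93318560 (plus strand) and chr13:5539847-5539936 (minus strand). Capitals mark bases that differ from S100A11.
S100A11: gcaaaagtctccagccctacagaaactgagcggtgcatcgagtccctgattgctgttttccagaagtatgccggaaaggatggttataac
copy on chromosome 7: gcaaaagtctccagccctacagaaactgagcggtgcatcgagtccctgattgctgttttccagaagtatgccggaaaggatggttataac
copy on chromosome 14: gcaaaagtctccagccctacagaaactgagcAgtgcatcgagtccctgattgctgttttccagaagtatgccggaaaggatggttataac
copy on chromosome 4: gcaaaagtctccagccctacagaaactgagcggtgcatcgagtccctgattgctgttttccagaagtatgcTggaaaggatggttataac
copy on chromosome 13: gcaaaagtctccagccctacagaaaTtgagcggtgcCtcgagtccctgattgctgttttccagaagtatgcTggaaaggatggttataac
The chromosome 7 copy had 0 mismatches over this stretch, the chromosome 14 and chromosome 4 copies had 1 each and the chromosome 13 copy had 3. The levels of S100A11 are therefore uncertain where reads fit both the gene and a copy, and how such reads were counted was not tested. ANXA2 had 2 matches elsewhere at up to 90.7% identity, LMNA had 1 at 87.8%, and S100A4, S100A6 and ANXA1 had 0 matches of 200 aligned bases or more.

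Of 7923 barcodes, 7601 passed the filter that the study states, and 7311 of these (96.2%) had at least 1 CD3E UMI and are called CD3E+ cells. They had a median of 3656 UMIs. Levels are given as summed UMIs of a gene per 1000000 UMIs of the same cells (CPM), and a cell belongs to a gate when it has at least 1 UMI of the gate gene. In these droplet counts an absent UMI does not show an absent transcript. B cell marker genes summed to 77.2 CPM in CD3E+ cells against 5223 CPM in the 86 cells called B gene cells, monocyte markers to 5.81 CPM with S100A12 and FCN1 at 0, and platelet markers to 1.26 CPM. Red blood cell genes summed to 242 CPM and were uneven, with 696 CPM in cells with 0 UMIs of both CCR7 and GZMB and 2.29 to 117 CPM in the other 8 combinations of CCR7 and GZMB bands. The 696 CPM came from 67 cells, 3.13% of that band. Among cells with 3 or more GZMB and 0 CCR7 UMIs, at 117 CPM, 721 cells (27.7%) had such a UMI. Red blood cell genes were at 8.65 to 26.2 CPM in the 5 gates. Cells with UMIs of other cell types were left out in 1 alternative calculation, and the part of such transcripts in the values below was otherwise not tested.

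Across all CD3E+ cells, S100A4 stood at 2928 CPM (2909 to 2948), S100A10 at 1483 CPM (1469 to 1497) and S100A11 at 1315 CPM (1302 to 1328). VIM was at 1070.0 CPM, ANXA1 at 566 CPM, S100A6 at 548 CPM and ANXA2 at 319 CPM. LMNA was the sparse member, with 36.2 CPM (34.1 to 38.4) from 1090 UMIs. These are UMI counts of a 5′ assay and not levels per length, so they are compared between sets of cells and not between genes. After each cell was thinned to 2000 UMIs, 86.5% of CD3E+ cells had a UMI of S100A11, 78.5% of S100A4, 56.1% of S100A6 and 5.34% of LMNA. In the 86 B gene cells (median 4138 UMIs) the thinned shares were 12.7%, 25.3%, 60.8% and 3.80%. S100A11 was at 116 CPM in the B gene cells. S100A6 (1418 CPM), VIM (1396 CPM) and LMNA (47.9 CPM) were not low in them. The shares of S100A6 and LMNA in CD3E+ cells lay within the intervals of the B gene cells (49.1 to 71.6% and 0.79 to 10.7%) and were not read as expression particular to T cells.

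The members split into 3 behaviours with GZMB. Among cells without a CCR7 UMI, S100A4, S100A10, ANXA1 and ANXA2 were higher in the 2602 cells with 3 or more GZMB UMIs than in the 2140 cells with none, S100A6 and LMNA were lower, and S100A11 and VIM lay within 1.5-fold. S100A4 stood at 2358 CPM with 0 GZMB UMIs, 3676 with 1 to 2 and 5341 with 3 or more, a log2 ratio of 1.18 (1.16 to 1.20) between the outer bands. For S100A10 the levels were 1027, 1769 and 2549.7 CPM, a log2 ratio of 1.31 (1.28 to 1.35). Its partner ANXA2 went from 238 to 343 and 536 CPM, a log2 ratio of 1.17 (1.09 to 1.24). The ordering 0, 1 to 2, 3 or more was the same in all 3 genes and no interval of neighbouring bands overlapped. ANXA1, whose product is known as a glucocorticoid-induced anti-inflammatory protein, had 479.8, 675 and 902 CPM, a log2 ratio of 0.91 (0.86 to 0.96).

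S100A6 ran the other way, with 712 CPM at 0 GZMB UMIs, 451 at 1 to 2 and 400.4 at 3 or more, a log2 ratio of -0.83 (-0.89 to -0.77). LMNA stood at 53.3 CPM (48.6 to 58.4), 52.6 CPM (41.2 to 66.1) and 28.8 CPM (25.5 to 32.5), a log2 ratio of -0.89 (-1.11 to -0.67). The lower LMNA level was thus found with 3 or more GZMB UMIs and not with 1 to 2. VIM differed little, from 1180.1 to 1173 CPM, with a log2 ratio of -0.01 (-0.05 to 0.03). S100A11 went from 1361 to 1633 CPM, a log2 ratio of 0.26 (0.23 to 0.30). Of the 8 members, 4 were higher by 1.5-fold, where 16.6% of the 4689 genes were, and 2 were lower by 1.5-fold, where 5.48% were. The members' median log2 ratio was 0.59 against 0.22 for all genes tested, so S100A11 lay near the median gene and VIM below it. With totals that left out ribosomal protein and mitochondrial genes every log2 ratio of this comparison shifted by -0.17, and that of VIM became -0.18. Without CCR7 as a condition, 4 members were higher by 1.5-fold in the 2770 cells with 3 or more GZMB UMIs than in the 4038 with none, beside 19.8% of all genes. In that comparison S100A6 had a log2 ratio of -0.56 and LMNA of -0.47, both inside 1.5-fold.

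**Figure D1:**
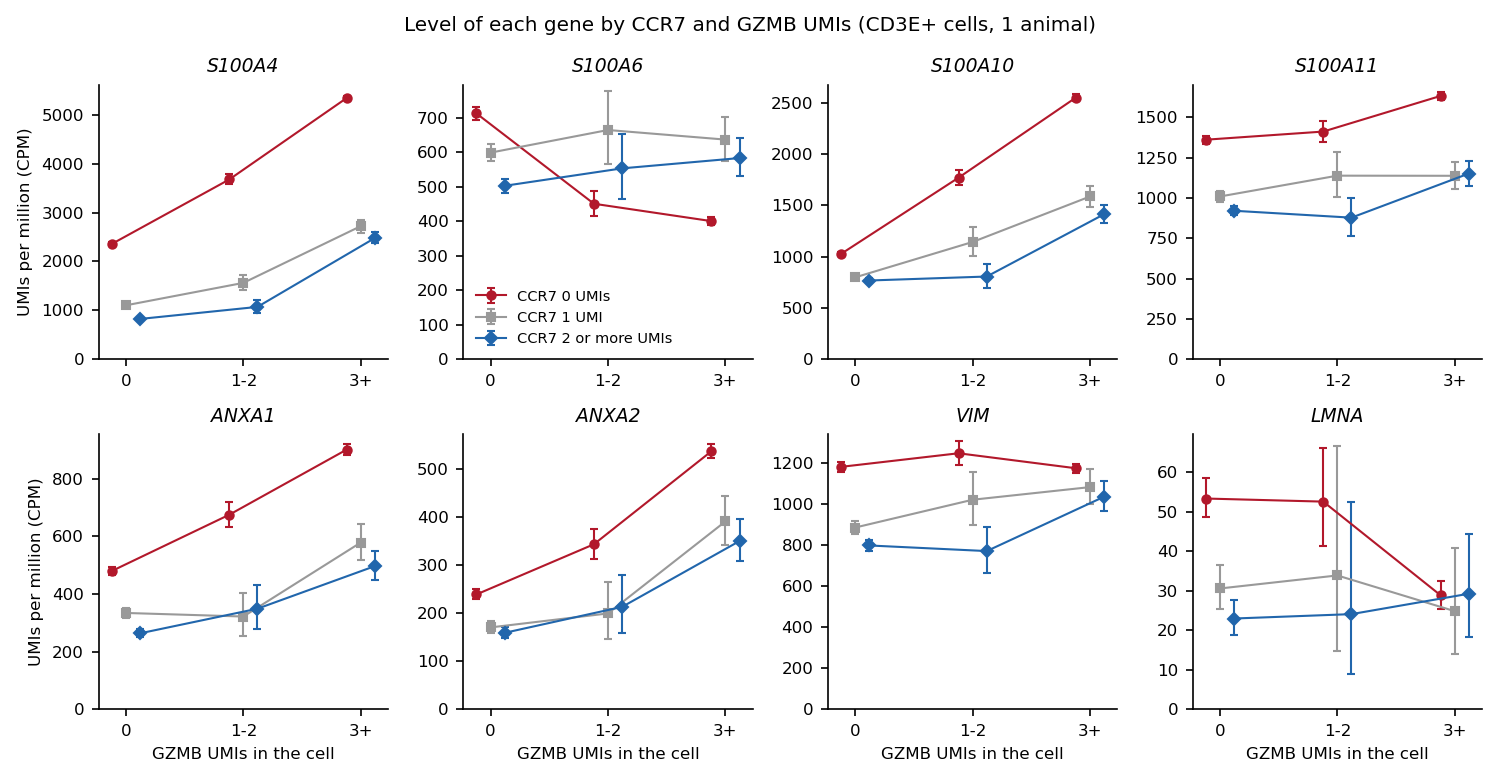
Level of each of the 8 genes in UMIs per 1000000 (vertical axes, from 0, own scale per gene) against GZMB UMIs in the cell (0, 1-2, 3+), with 1 line per CCR7 band; bars are exact 95% Poisson intervals, and bands are shifted sideways for clarity. Along the CCR7 0 line S100A4 goes from 2358 to 5341 CPM and S100A6 from 712 to 400.4 CPM.

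The GZMB relation was graded in S100A4, S100A10, ANXA1, ANXA2 and S100A11, which were higher in each next bin. S100A11 differed least of these. Its log2 ratio of 0.26 between 3 or more and 0 GZMB UMIs lay near the median of 0.22 for all genes. It became 0.09 when totals left out ribosomal protein and mitochondrial genes. No levels of all genes were taken per bin. Cells without CCR7 UMIs were further divided by 0, 1 to 2, 3 to 5, 6 to 10, 11 to 20 and 21 or more GZMB UMIs. ANXA2 stood at 238, 343, 389, 457, 560.3 and 710.4 CPM over these bins. S100A4 ended at 5993 CPM and S100A10 at 2784 CPM in the top bin, 1.07 and 1.04 times the bin below, against 1.27 times for ANXA2. ANXA1 levelled off, with 906 CPM at 6 to 10 UMIs, 939.8 at 11 to 20 and 942 at 21 or more. S100A6 was lowest in the cells with 3 to 5 UMIs, at 356 CPM (327 to 386), and stood at 424 CPM (396 to 455) in the top bin. LMNA was 34.6 CPM at 3 to 5 UMIs, 22.8 at 6 to 10 and 31.2 at 21 or more, with overlapping intervals. VIM stayed between 1139.5 and 1267 CPM in every bin. Median UMIs per cell ran from 3116 to 3859 across the 6 bins, highest at 0 GZMB UMIs.

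**Figure D2:**
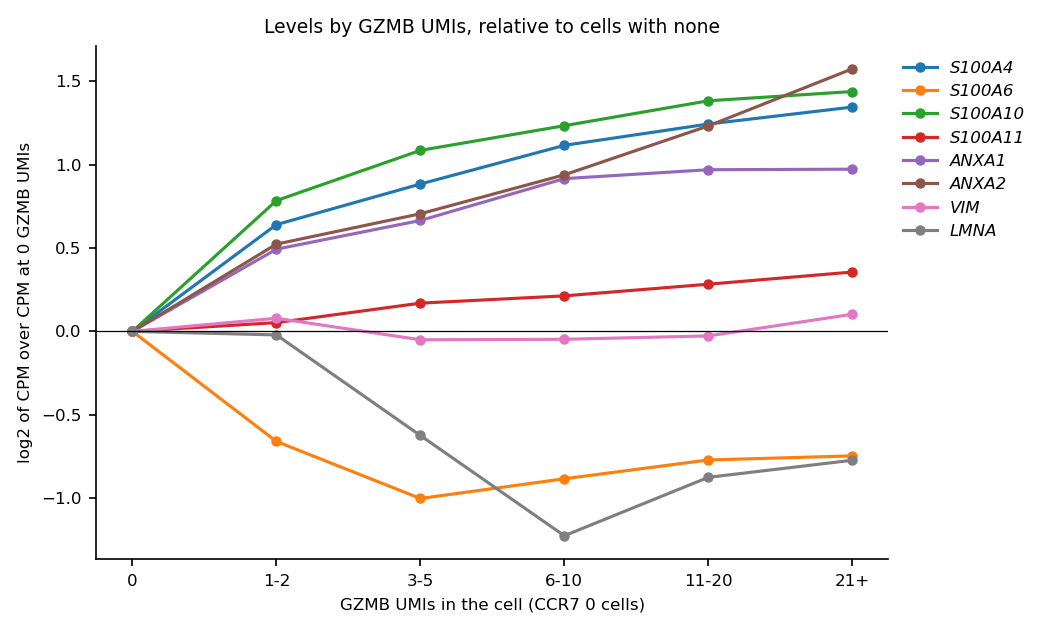
log2 of each gene's CPM over its CPM at 0 GZMB UMIs (vertical axis) against GZMB UMIs in the cell (horizontal axis), in CD3E+ cells without CCR7 UMIs; points are values of 1 animal without intervals. ANXA2, S100A10, S100A4 and ANXA1 lie above 0 in every bin past the first, S100A6 and LMNA lie below 0 in the upper bins, and VIM stays near 0.

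CCR7 ordered the members in 1 direction among cells with 0 GZMB UMIs. Among cells without GZMB UMIs, all 8 were higher in the 2140 cells with 0 CCR7 UMIs than in the 1004 cells with 2 or more, and the 894 cells with 1 CCR7 UMI lay between. S100A4 stood at 2358 CPM with 0, 1103 with 1 and 824 with 2 or more CCR7 UMIs, a log2 ratio of 1.52 (1.47 to 1.57) between the outer bands. LMNA had 53.3, 30.6 and 22.9 CPM, a log2 ratio of 1.22 (0.92 to 1.53), which came down to 0.59 after gates and levels were taken at 2000 UMIs per cell. The corresponding levels of ANXA1 were 479.8, 334 and 263 CPM, a log2 ratio of 0.87 (0.78 to 0.96). These 3 members had the widest CCR7 differences of the 8 before thinning. At 2000 UMIs per cell VIM had a log2 ratio of 0.72, above that of LMNA.

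Before thinning, the remaining 5 members differed less by CCR7. ANXA2 had a log2 ratio of 0.59 (0.47 to 0.71), from 159 to 238 CPM, just past 1.5-fold. VIM with 0.57 (0.51 to 0.62) and S100A11 with 0.56 (0.51 to 0.61) were just inside it. S100A6 followed with 0.50 (0.44 to 0.57) and S100A10 with 0.42 (0.37 to 0.48). Of the 8 members S100A10 thus had the highest GZMB ratio among cells without CCR7 UMIs and the lowest CCR7 ratio among cells without GZMB UMIs. Over all CD3E+ cells S100A4 had the highest GZMB ratio, at 1.60 against 1.42 for S100A10, and S100A6 the lowest CCR7 ratio. In all, 4 of 8 members were higher by 1.5-fold, where 4.48% of all genes were, and the median log2 ratio was 0.58 for the members and 0.11 for all genes. Over all GZMB levels, 6 of 8 were higher by 1.5-fold in the 5148 cells with 0 CCR7 UMIs than in the 1135 with 2 or more, beside 13.2% of all genes. S100A6 differed least, at 543 against 515 CPM. Its log2 ratio of 0.08 became -0.07 when totals left out ribosomal protein and mitochondrial genes, which shifted every gene of this comparison by -0.14.

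**Figure D3:**
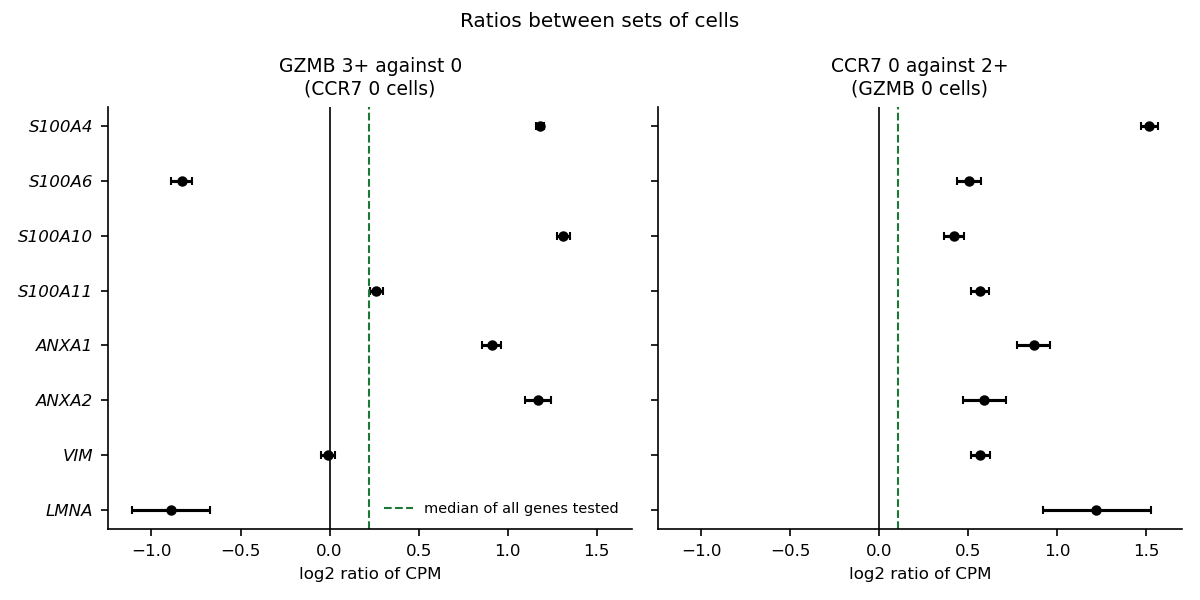
log2 ratio of CPM for each gene, at left between cells with 3 or more and 0 GZMB UMIs (all with 0 CCR7 UMIs) and at right between cells with 0 and 2 or more CCR7 UMIs (all with 0 GZMB UMIs); bars are exact 95% intervals for counting error and the dashed line is the median of the 4689 genes. S100A6 and LMNA lie left of 0 in the GZMB panel and right of 0 in the CCR7 panel.

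S100A4 had the widest range of the members over the 9 CCR7 by GZMB bands, from 824 to 5341 CPM, or 6.48-fold. Cells with 3 or more GZMB UMIs that also had CCR7 UMIs took intermediate S100A4 levels, 2722 CPM with 1 CCR7 UMI (83 cells) and 2479 CPM with 2 or more (85 cells). S100A6 was not low in them, at 637 and 583 CPM. These cells had medians of 7213 and 7877 UMIs against 3262 in GZMB 3 or more cells without CCR7, and B cell markers of 407 and 209 CPM. Of them, 45.8% and 63.5% were among the 5% of kept cells with the highest doublet scores. Whether they are single cells was not tested.

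S100A4 and S100A6 thus differed in opposite directions with GZMB and in the same direction with CCR7 where GZMB was absent.

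The gates by chemokine receptor, FOXP3 and TRAV10 separated the members further. CCR4 is a chemokine receptor of Th2 and regulatory T cells and CCR6 of Th17 cells, CCR9 is a gut homing receptor, FOXP3 is the lineage factor of regulatory T cells and TRAV10 is a T cell receptor alpha variable segment used by invariant NKT cells. The gates held 176, 557, 479, 162 and 247 CD3E+ cells, and 195 cells fell in 2 or more of them. Because few cells of the first 4 gates had 3 or more GZMB UMIs, levels are also given among cells with 0 UMIs of both CCR7 and GZMB. In the 11 CCR4+, 47 CCR6+ and 33 CCR9+ cells with 3 or more GZMB UMIs, median UMIs were 7519, 7617 and 8040, against 3303 in all CD3E+ cells with that many GZMB UMIs, and these cells are not described further. Gated cells also had more RNA read, with median UMIs from 3837 in TRAV10+ to 4937 in CCR6+ cells.

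CCR4+ cells carried the highest LMNA, S100A6 and VIM levels of the 5 gates. LMNA stood at 95.1 CPM (76.7 to 117) in CCR4+ cells and 34.2 CPM without a CCR4 UMI, a log2 ratio of 1.47 (1.15 to 1.78). S100A6 was at 899.6 against 536 CPM, a log2 ratio of 0.75 (0.65 to 0.85), and VIM at 1483 against 1056 CPM, a log2 ratio of 0.49 (0.41 to 0.57). S100A4 was lower, at 1756 against 2967 CPM. By the 1.5-fold rule 2 members were higher, beside 3.31% of all genes, and 1 was lower, beside 6.25%. Among cells with neither CCR7 nor GZMB UMIs the S100A4 difference was small, with 2103 CPM in 83 CCR4+ cells and 2371 CPM in the rest. There LMNA (113 against 50.3 CPM), S100A6 (1151 against 689.7), VIM (1888 against 1144) and ANXA2 (392 against 231) were higher. By 1.5-fold these 4 of 8 members stood beside 409 of all 4689 genes, and 0 members were lower, beside 366 genes. Cycling genes were higher in the same CCR4+ cells, at 467 against 137 CPM, and their part was not tested. The 165 CCR4+ cells without a FOXP3 UMI kept an LMNA level of 100.1 CPM.

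CCR6+ cells lay closer to the other cells. S100A6 was at 781 against 521 CPM, a log2 ratio of 0.59 (0.52 to 0.65) whose interval takes in 1.5-fold, and ANXA1 at 375 against 588 CPM, a log2 ratio of -0.65 (-0.74 to -0.57). B cell markers were at 164 against 67.0 CPM, and without cells with UMIs of other cell types the log2 ratio of S100A6 was 0.54. By 1.5-fold S100A6 and ANXA1 were the 1 member higher, beside 1.98% of all genes, and the 1 member lower, beside 3.84%. Among cells without CCR7 and GZMB UMIs neither was past 1.5-fold, at log2 ratios of 0.37 for S100A6 and -0.36 for ANXA1. The log2 ratio of S100A4 was -0.40 in all cells and 0.14 in the cells without CCR7 and GZMB UMIs.

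CCR9+ cells were low in LMNA and S100A4, and higher in S100A6 over all CD3E+ cells. LMNA had 31 UMIs in 479 CCR9+ cells, 11.7 CPM (7.92 to 16.5) against 38.6 CPM, a log2 ratio of -1.73 (-2.29 to -1.21). Among cells without CCR7 and GZMB UMIs it had 6 UMIs in 243 CCR9+ cells, 4.98 CPM (1.83 to 10.8) against 61.1 CPM, a log2 ratio of -3.62 (-5.07 to -2.48). Red blood cell genes were at 6.64 CPM in the former and 807 in the latter, and without cells with UMIs of other cell types the log2 ratio of LMNA over all CD3E+ cells was -2.37. Of all cells without CCR7 and GZMB UMIs, 3.13% had a UMI of red blood cell genes. The thinned share of CCR9+ cells with an LMNA UMI, 1.31% (0.481 to 2.82%), was below the 3.80% of B gene cells, which were not low in LMNA and so give no background level for it. S100A4 stood at 1296 against 3086 CPM, and among cells without CCR7 and GZMB UMIs at 1176 against 2548 CPM, a log2 ratio of -1.11 (-1.19 to -1.04). S100A6 was at 827 against 521 CPM, a log2 ratio of 0.67 (0.60 to 0.73). B cell markers were also higher with CCR9, at 148 against 70.3 CPM, and without cells with UMIs of other cell types the log2 ratio of S100A6 was 0.63. Among cells without CCR7 and GZMB UMIs, where B cell markers were at 54.8 against 63.5 CPM, it was 0.48 (0.38 to 0.57), inside 1.5-fold. In all CD3E+ cells 1 member was higher by 1.5-fold, beside 1.75% of all genes, and 4 were lower, beside 7.55%. The lower ones were S100A4, S100A10, ANXA2 and LMNA, of which S100A10 with -0.25 and ANXA2 with -0.55 were inside 1.5-fold among cells without CCR7 and GZMB UMIs. Among those cells 2 of 8 members were lower and 0 higher by 1.5-fold, beside 331 and 90 of all 4689 genes.

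LMNA was higher in cells with CCR6 as their only gate gene than in CCR9+ cells with or without CCR6. Its level was 55.5 CPM (46.0 to 66.4) in the 401 cells with CCR6 only and 19.2 CPM (9.94 to 33.6) in the 95 cells with both receptors. In the 357 cells with CCR9 only it was 7.58 CPM (4.14 to 12.7), an interval that overlapped that of the cells with both. These sets were not limited by CCR7 or GZMB UMIs. S100A4 had the same order, at 2339.6, 1854 and 1063 CPM. S100A6 did not, at 750.0, 910.2 and 807 CPM. ITGB1, the integrin beta-1 chain, which is no member but a listed membrane partner, was also lower in CCR9+ cells, at 65.8 against 206 CPM. It was picked after values were seen. Of the 25 measured genes of its list 3 were lower by 1.5-fold and 0 higher, beside 7.55% and 1.75% of all genes.

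**Figure D4:**
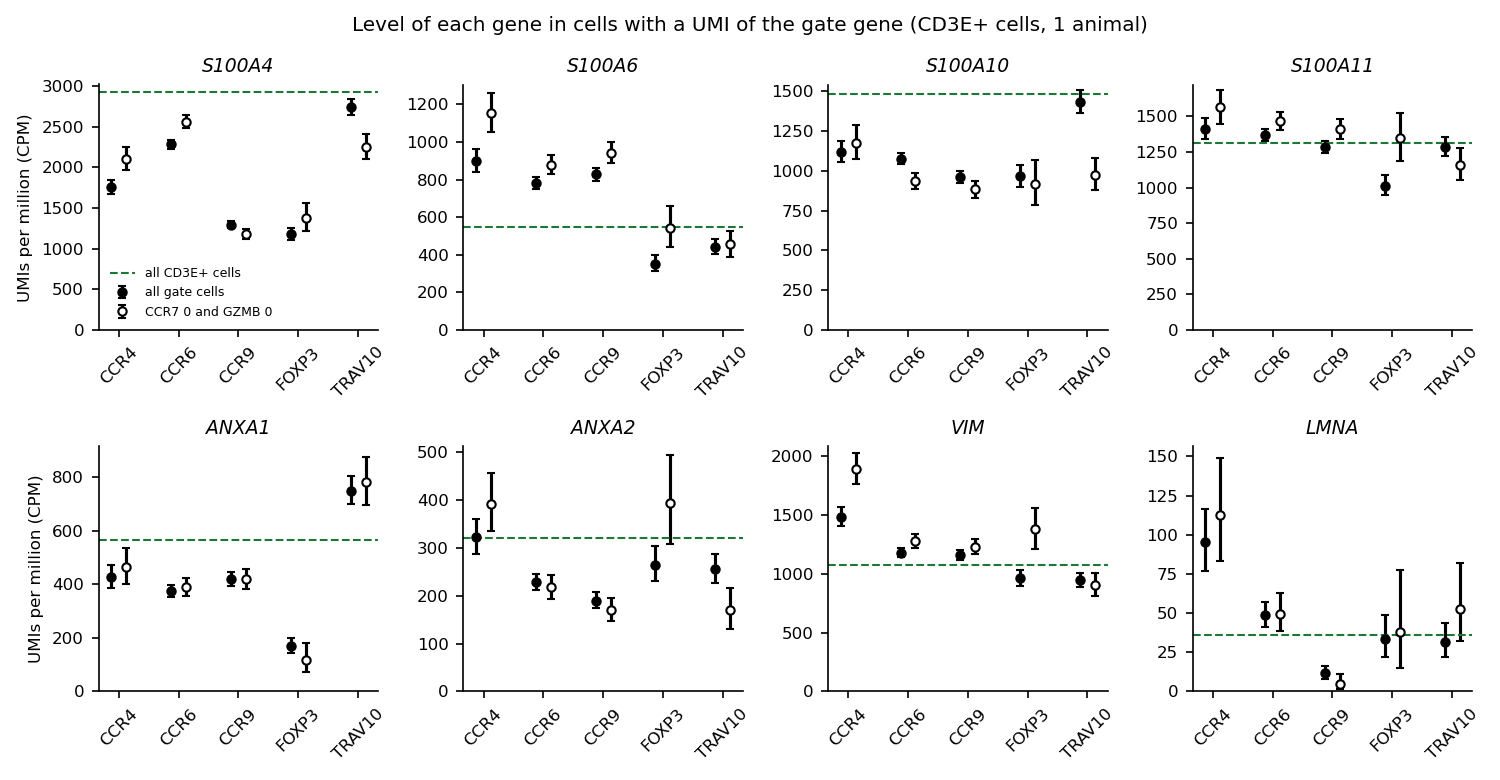
Level of each gene in UMIs per 1000000 (vertical axes, from 0) in the CD3E+ cells with a UMI of CCR4, CCR6, CCR9, FOXP3 or TRAV10; filled points are all cells of the gate, open points those with 0 CCR7 and 0 GZMB UMIs, bars are exact 95% Poisson intervals and the dashed line is the level in all CD3E+ cells. LMNA is highest in CCR4+ cells (95.1 CPM) and lowest in CCR9+ cells (11.7 CPM), and ANXA1 is lowest in FOXP3+ cells (170.2 CPM).

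FOXP3+ cells stood out by low ANXA1. Its level was 170.2 CPM (143 to 201) in 162 FOXP3+ cells and 577 CPM in the rest, a log2 ratio of -1.76 (-2.01 to -1.52). Among cells without CCR7 and GZMB UMIs it was 118 CPM (22 UMIs in 42 cells) against 488 CPM, a log2 ratio of -2.04 (-2.72 to -1.44). S100A4, S100A6 and S100A10 were the other members lower by 1.5-fold, and 4 of 8 stood beside 13.4% of all genes. Among cells without CCR7 and GZMB UMIs S100A4 kept this with a log2 ratio of -0.78, while S100A6 with -0.40 and S100A10 with -0.16 were inside 1.5-fold. In that comparison 2 of 8 members were lower and 1 higher by 1.5-fold, beside 811 and 752 of all 4689 genes. These numbers of members do not stand out. ANXA2 depended on the cells compared, with a log2 ratio of -0.28 (-0.48 to -0.08) in all cells and 0.74 (0.38 to 1.08) among cells without CCR7 and GZMB UMIs. It was -0.92 after thinning to 2000 UMIs and -1.07 in cells with 3000 to 5000 UMIs. VIM had -0.16 in all cells, -1.09 in cells with 3000 to 5000 UMIs and 0.23 among cells without CCR7 and GZMB UMIs. S100A11 had -0.38 in all cells and ran from -0.79 to -0.01 among the alternative calculations. Cycling genes were at 823 CPM in the 42 FOXP3+ cells without CCR7 and GZMB UMIs and at 138 CPM in the rest, and their part was not tested.

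The FOXP3 gate was itself mixed by CCR7. The 47 FOXP3+ cells without CCR7 UMIs had 2115 CPM of S100A4 and the 115 with CCR7 UMIs had 839.8, a log2 ratio of 1.33 (1.15 to 1.52). S100A6 (543 against 283 CPM), VIM (1475 against 775), S100A11 (1484 against 841) and ANXA2 (389.6 against 219) had the same direction. By 1.5-fold 5 of 8 members were higher without CCR7 UMIs, beside 1047 of all 4689 genes, and 0 were lower, beside 554. Cycling genes were at 756 against 136 CPM and the median mitochondrial share was 5.07 against 3.79%, and their part was not tested. ANXA1 was low on both sides, at 213 (156 to 285) and 154 CPM (124 to 189.5), with overlapping intervals.

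TRAV10+ cells were the gate with the highest ANXA1 level. ANXA1 was at 749 CPM (699 to 802) against 559 CPM, and among cells without CCR7 and GZMB UMIs at 781 against 466 CPM, a log2 ratio of 0.74 (0.57 to 0.92). S100A6 was lower there, at 455 against 724 CPM, a log2 ratio of -0.67 (-0.90 to -0.45). By 1.5-fold 1 of 8 members was higher and 1 lower among those cells, beside 267 and 523 of all 4689 genes. Over all CD3E+ cells 0 of 8 members were past 1.5-fold, beside 1.32% of all genes higher and 3.63% lower. Inside the gate, LMNA had 1 UMI in the 73 cells with a UMI of ZBTB16, the innate lineage factor PLZF, and 34 UMIs in the 174 cells without. The levels were 2.88 CPM (0.073 to 16.1) and 44.7 CPM (31.0 to 62.5), and their intervals did not overlap. The other 7 members lay within 1.5-fold between these cells. Of all 4689 genes 636 were lower and 374 higher by 1.5-fold in the cells with a ZBTB16 UMI, so 1 lower member does not stand out.

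Across the 5 gates the LMNA order was CCR4, CCR6, FOXP3, TRAV10 and CCR9, and the intervals of CCR6, FOXP3 and TRAV10 overlapped. The ANXA1 order was TRAV10, CCR4, CCR9, CCR6 and FOXP3, and the intervals of neighbours overlapped from CCR4 to CCR9 and from CCR9 to CCR6. S100A11 varied least, from 1014 to 1415 CPM.

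**Figure D5:**
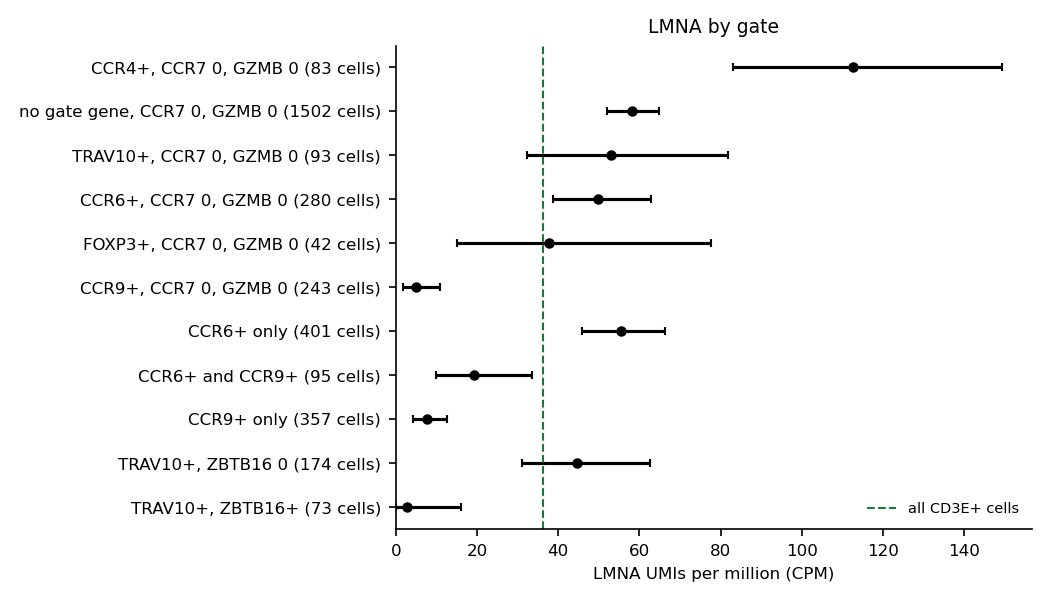
LMNA level in UMIs per 1000000 (horizontal axis, from 0) in sets of CD3E+ cells (vertical axis, with their number of cells); bars are exact 95% Poisson intervals and the dashed line is all CD3E+ cells. The sets are not disjoint. CCR9+ cells and TRAV10+ ZBTB16+ cells lie below 20 CPM, and the CCR4+ set without CCR7 and GZMB UMIs lies at 113 CPM.

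The surface tags were a readout that did not enter the choice of the genes. Over all CD3E+ cells, S100A4 went from 4113 CPM in the lowest quartile of CD4 tag UMIs to 2385 in the highest, and LMNA from 25.3 to 44.4 CPM. Within bands the S100A4 difference was smaller with many GZMB UMIs and reversed without them. Among cells without CCR7 and GZMB UMIs S100A4 was 1915, 2542, 2512 and 2380.2 CPM from the lowest to the highest quartile. Among cells with 3 or more GZMB UMIs and no CCR7 UMI it was 5844 CPM in the lowest and 4739 CPM in the highest. In that band LMNA was 21.6 (15.6 to 29.2), 18.6, 25.3 and 42.5 CPM (35.6 to 50.4) from lowest to highest CD4 tag quartile. It was thus higher mainly in the highest quartile, where median UMIs were 4141 against 2977.5 in the lowest. The thinned shares with an LMNA UMI were 3.37% (2.07 to 5.16%) in the lowest and 5.30% (3.70 to 7.32%) in the highest quartile. These intervals overlapped, so the LMNA difference in this band was not separated from RNA depth. By CD8 tag, S100A6 went from 454 CPM in the lowest to 613 in the highest quartile. S100A4 was similar in the outer CD8 tag quartiles, at 2605 and 2533 CPM, and higher between them, at 3552 and 3161 CPM. Over all CD3E+ cells the highest CD4 tag quartile had a median of 4867 UMIs and the lowest 3066, so tag and RNA depth moved together. The part of depth was otherwise not tested.

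Other genes of the same families were mostly sparse. Of 13 listed genes with a row that were further S100 genes or S100PBP, which encodes an S100 binding protein, 0 reached 20 CPM in CD3E+ cells. S100A8 had 5 UMIs and S100A9 had 2, which are the granulocyte and monocyte S100 genes. Of 9 further annexins with a row 4 reached that level. With GZMB in cells without CCR7 UMIs 2 of the 4 were higher by 1.5-fold, where 16.6% of all genes were. These were ANXA6 at 411 against 263 CPM and ANXA7 at 83.3 against 55.4 CPM. The median log2 ratio of the 4 annexins was 0.32 against 0.22 for all genes. LGALS3, the only further galectin at that level, was higher both with GZMB (272 against 151 CPM) and with 0 CCR7 UMIs among cells without GZMB UMIs (151 against 53.3 CPM). All 7 listed genes for receptors and other partners of annexins and S100 proteins, among them the receptors FPR1, FPR2, AGER and TLR4, were under 20 CPM.

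The nuclear envelope and cytoskeleton lists gave a setting for LMNA and VIM. Of 8 measured nuclear envelope genes 2 were higher by 1.5-fold with GZMB among cells without CCR7 UMIs and 1 was lower. LMNB1 at 40.1 against 24.4 CPM and SYNE1 at 142 against 77.1 CPM were higher. SYNE2 was lower, at 31.9 against 92.8 CPM. Of all genes 16.6% were higher and 5.48% lower, so these shares were near the background. The B-type lamin gene LMNB1 was higher where LMNA was lower, and the linker genes SYNE1 and SYNE2 went opposite ways. With shares near the background these single genes are not read as a result about the list. Cycling genes were at 250 CPM with 3 or more GZMB UMIs and 153 CPM with 0 in these cells without CCR7 UMIs, and their part was not tested. Of 25 measured membrane and cytoskeleton genes 12 were higher and 1 was lower by 1.5-fold, with a median log2 ratio of 0.58 against 0.22 for all genes. The higher ones included AHNAK, a large scaffold bound by S100A10 and ANXA2 (1259.6 against 782 CPM), FLNA (898 against 423), MYO1G (468 against 213) and ACTB (8869 against 4519). The lower one was ITGB1, at 154 against 247 CPM. By CCR7 in cells without GZMB UMIs 5 of the 25 were higher by 1.5-fold, among them AHNAK and ITGB1. By the same rule 0 of the 8 nuclear envelope genes and 4.48% of all genes were higher.

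From cell to cell the members went together loosely. Over the 6935 CD3E+ cells with at least 2000 UMIs, thinned to that number, Pearson's r of log counts over the 28 pairs had a median of 0.175, highest between S100A4 and S100A10 at 0.57. Within the 2489 such cells with 3 or more GZMB and 0 CCR7 UMIs that pair had r = 0.25. The values come from 1 library and sparse counts, and are given as descriptions. Across the 14 sets (9 bands and 5 gates, which share cells), S100A4 and S100A10 had r = 0.94, S100A10 and ANXA2 r = 0.90, S100A11 and VIM r = 0.86, and S100A4 and S100A6 r = -0.18. Against the mean profile of the 8 members, S100A6 had r = 0.08 and LMNA r = 0.49, while the other 6 had 0.79 to 0.94. That mean includes the member compared with it, so each of these values is partly a gene set against itself. The genes outside the group most like that mean profile were CAPN2 (r = 0.96), ARF5, LCP1, EMP3 and IL18, and the least like it were RPL18 (r = -0.93), RPS26, RPL4, RPL35A and the unnamed ENSMMUG00000015563.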

How the data were processed

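The authors isolated circulating CD4+CD8+ T cells from 1 rhesus monkey, made Single-Cell 5′ gene expression and feature barcode libraries, and deposited raw UMI counts per gene and tag in 10x matrices, which were used as deposited. Per the labels and the study's methods they used Cell Ranger 3.1.0 and STAR 2.5.1b with the Mmul_10 genome, and Seurat 3.1.3 for filtering. No source used here gives the release of the gene annotation. The filter they state was applied anew. A gene had to be found in at least 3 cells, and a cell had to hold 200 to 4000 genes. No more than 20% of a cell's UMIs could lie in mitochondrial genes, counted as 13 named genes and 2 without a symbol.

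Everything after that was computed here with python 3.11.15, numpy 2.4.6, scipy 1.17.1, pandas 2.3.3 and scanpy 1.11.5. Cells were grouped by raw UMIs. Levels are summed UMIs per 1000000 UMIs with exact Poisson intervals, and ratios have exact intervals from the binomial split of the counts. No p-value was computed, since there was 1 sample, and a gene was called past 1.5-fold. For shares of cells, each cell was thinned at random to 2000 UMIs, which left out 376 of 7311 CD3E+ cells as too shallow. Ratios were tested on simulated data first. Intervals cover counting error only, and PCR or capture error is not in them. Scrublet marked 0 of 7601 cells at its own threshold, so doublets were not removed, and leaving out the 5% of cells with the highest scores was an alternative.

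The members and gene lists were chosen with earlier results of these data known. Named genes were the members, the gate genes, the listed family and partner genes, and the 5 genes most and the 5 least like the members' mean of log2(CPM + 10) over 14 sets. S100A11 was read from ENSMMUG00000004441, found through the gene name table, and LGALS1 was not measured. ITGB1 was set beside the CCR9 result, and the GZMB bins, tag quartiles within bands and splits of gates were chosen, after values were seen. Gene matches in Mmul_10 were found with blastn 2.17.0, and figures were drawn with matplotlib 3.10.9.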

Additional observations from a re-analysis of the deposited data

How the results depend on the processing

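For the 9 comparisons, the number of members past 1.5-fold was recomputed 137 times and was within 1.5 times the reported number in 113. No member past 1.5-fold in the main calculation changed sign in an alternative. ANXA2 with FOXP3, inside 1.5-fold in the main calculation, ran from a log2 ratio of -1.07 to 0.74 among the alternatives. With 2-fold in place of 1.5-fold the number was 3 in place of 6 for GZMB among CCR7 0 cells, 2 in place of 4 for CCR7 among GZMB 0 cells, 1 in place of 3 for CCR4, 0 in place of 2 for CCR6, 2 in place of 5 for CCR9 and 2 in place of 4 for FOXP3. With both sides at GZMB 0, the numbers were 0 for CCR6, 2 for CCR9 and 1 for TRAV10, and with both sides also at CCR7 0 they were 0, 2 and 2. After thinning gates and levels to 2000 UMIs they were 4 for CCR6 and 8 for FOXP3, in cells with 3000 to 5000 UMIs 4 and 7, and for cells with 1 gate gene alone 5 and 7. At least 2 UMIs of CCR4 gave 5. For CCR6, no CD3E requirement, leaving out cells with other cell type markers and a pseudocount of 10 CPM each gave 1, and a mean over cells gave 4. For FOXP3, no cell filter gave 2. The cause was not tested. Shares of all genes past 1.5-fold under these settings are not given, so the numbers are not read as results about the members. Under the deposited symbol for S100A11, an alternative added after the data were seen, all 9 numbers were as reported.

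No paired analysis was possible because there was 1 sample of each kind. Depth limits LMNA most: the gates among cells without CCR7 and GZMB UMIs, of 42 to 280 cells, held 6 to 69 of its UMIs, and with 1 animal no difference is set against variation between animals.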
